A study of Mus musculus with 2 samples.

Results

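The 4 Hox gene clusters were examined for contacts with an upstream enhancer of Pou5f1, the gene that encodes the pluripotency factor Oct4. The listed Hox genes number 38, held in 39 gene records of GENCODE M1 because Hoxa3 has 2 records, among 22367 protein-coding genes in all. Of the 38, 10 lay in the Hoxa cluster on chromosome 6, 10 in Hoxb on chromosome 11, 9 in Hoxc on chromosome 15 and 9 in Hoxd on chromosome 2. The genes were chosen by name, and their annotated positions fell on these 4 chromosomes and no other. A cluster is taken here as the stretch from the first to the last of its listed genes.

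Enzyme-based 4C-Seq was performed on E14, a mouse embryonic stem (ES) cell line grown with serum and LIF on gelatin and cross-linked with formaldehyde. Both samples belong to 1 untreated group, described as biological replicates 1 and 2, and no control bait, treated cells or differentiated cells are part of this comparison. In this assay, HindIII fragments that lie near each other in the nucleus are ligated, trimmed with DpnII and closed into circles, from which primers in the bait read out its partners. For each replicate, the deposited file lists regions with more contacted HindIII sites than the background, called in that replicate alone: 79 in replicate 1 and 94 in replicate 2 off chromosome 17, which carries the bait. Touching regions are counted separately here, and the study itself reports fewer regions in each replicate. A further file lists 1806 contacted HindIII sites without telling the replicates apart. The files hold positions without counts or expression values, so the number of reads behind a region or site is unknown, and neither the strength of a contact nor the identity of the cells by marker genes could be checked. By the mapping summary supplied with the study, replicate 1 had more reads joined at HindIII sites, and more contacted sites on other chromosomes, than replicate 2. The part of this difference in what follows was not tested.

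Hox genes encode homeodomain transcription factors that give cells their position along the body axis. Mammals carry them in clusters made by duplication of an ancestral cluster, and genes at the same place in different clusters form paralogue groups, from group 1 at the anterior end to group 13 at the posterior end. In ES cells the clusters are known as large domains of Polycomb repression, marked by H3K27me3 and with little transcription. The bait, in contrast, is an enhancer that is active in these cells.

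The clusters differed in how they met the enriched regions. The Hoxa cluster lay in a region of both replicates, Hoxc lay in a region of replicate 2 only, Hoxb was split by the edge of a region of replicate 2, and Hoxd lay in none. Thus 1 of 4 clusters overlapped a region in replicate 1 and 3 of 4 in replicate 2, where the regions held 17.7% and 20.0% of all protein-coding gene starts off chromosome 17. The measures are unlike, since a whole cluster meets a region more easily than a single gene start does. Of the 3 clusters in replicate 2, Hoxb was covered only to 26.7%, and Hoxc rested on a short window at a chromosome end, without which 2 clusters remained. With 2 replicates of 1 group, the design allows no test of these counts, and they are given as a description.

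**Figure D1:**
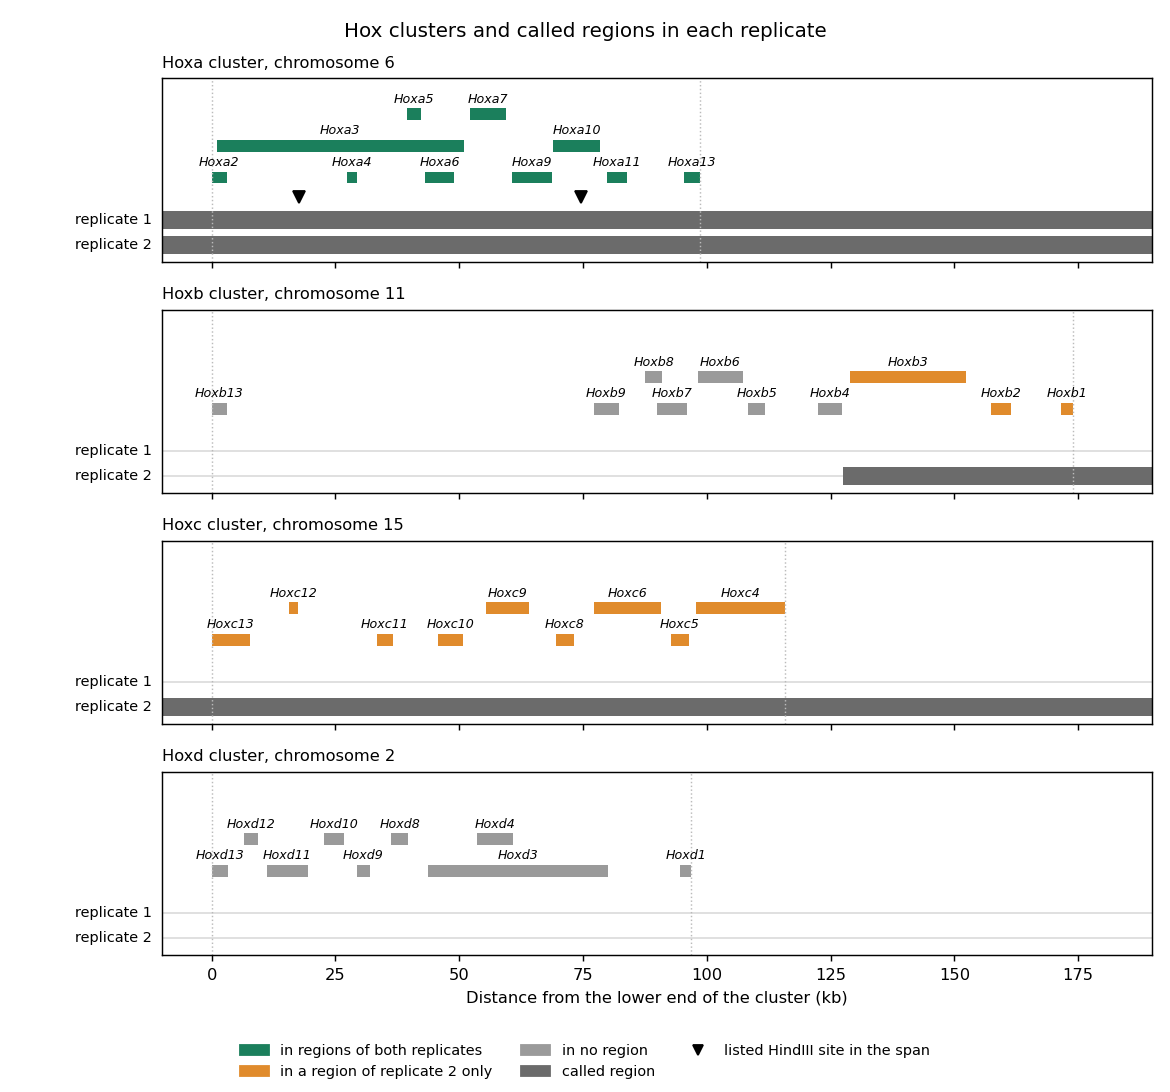
Listed Hox genes of each cluster (bars, coloured by the replicates whose regions hold the gene start) against distance from the lower end of the cluster in kb, with called regions of each replicate as dark bars and listed HindIII sites inside a cluster as triangles. Only Hoxa is covered in both replicates, the region of replicate 2 begins between Hoxb4 and Hoxb3, and the Hoxd panel holds no region.

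Regions were called on windows with many HindIII motifs, 648 in the window that holds Hoxa. From the clusters, 3 motifs are shown: both contacted sites listed in Hoxa, and the motif next to the start of the region in Hoxb. They are given on the plus strand of mm9 with 60 bases on each side and the motif in capitals. The Hoxa3 site lies at chr6:52130046-52130051 (sequence chr6:52129986-52130111), the Hoxa10 site at chr6:52186923-52186928 (sequence chr6:52186863-52186988) and the Hoxb edge at chr11:96183141-96183146 (sequence chr11:96183081-96183206).
Hoxa3 site: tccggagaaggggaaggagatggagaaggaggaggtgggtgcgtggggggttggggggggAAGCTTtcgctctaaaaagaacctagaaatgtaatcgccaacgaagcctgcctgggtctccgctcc
Hoxa10 site: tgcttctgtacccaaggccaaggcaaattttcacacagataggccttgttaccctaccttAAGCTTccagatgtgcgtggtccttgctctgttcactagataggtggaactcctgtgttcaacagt
Hoxb edge: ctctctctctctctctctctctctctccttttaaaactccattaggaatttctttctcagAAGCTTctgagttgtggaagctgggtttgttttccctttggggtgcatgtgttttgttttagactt
The Hoxa3 site has a purine-rich lower flank, a GC content of 58.7% and 6 CpG dinucleotides in the 126 bases shown. The Hoxa10 site has a GC content of 47.6% and 1 CpG. The Hoxb edge follows a CT repeat, with a GC content of 41.3% and 0 CpGs. All 3 lack a DpnII motif in the bases shown. The nearest DpnII motifs lay 249 bp and 508 bp to either side of the Hoxa3 site, and 677 bp and 254 bp to either side of the Hoxa10 site.

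In replicate 1, 10 of 38 Hox genes (26.3%) had their start in an enriched region, against 17.7% of all 21276 protein-coding genes off chromosome 17. In replicate 2 it was 22 of 38 (57.9%), against 20.0%. Of these 22, the 9 Hoxc genes rested on 1 short window at a chromosome end, and without windows of fewer than 500 HindIII motifs, left out after seeing the data, replicate 2 held 13 of 38, against 19.9% of all genes. The mean was 16 ± 8.49 genes (SD, n = 2). All 10 genes of replicate 1 were also in a region of replicate 2, so 10 of 38 (26.3%) were found in both, against 10.0% of all genes, and 22 of 38 in either, against 27.7%. Another 12 genes were in replicate 2 only, 0 in replicate 1 only and 16 in neither. Genes of a cluster share their region and so are not independent: the 38 genes stand for 4 places in the genome, and the difference between the replicates comes from Hoxc and the end of Hoxb.

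The Hoxa cluster spanned chromosome 6, 52112350 to 52210874 (98.5 kb), and was covered in full in both replicates. All 10 listed genes, from Hoxa2, which patterns the hindbrain and the second pharyngeal arch, through Hoxa5 and Hoxa9 to Hoxa13, needed for the distal limb, had their start in a region of each replicate. The region ran from 50927081 to 52858765 in both lists. It extended 1.19 Mb beyond Hoxa2 on the lower side. Replicate 1 also had the touching region at 48563082 to 50927080, which replicate 2 lacked. Replicate 2 had its next region on that side at 11.5 Mb from the cluster, ending at 40627669. On the higher side, the next regions lay 59.3 Mb away in replicate 1 and 54.3 Mb away in replicate 2.

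Of 34 windows found in both replicates off chromosome 17, the Hoxa window was the narrowest, at 1.93 Mb (median 2.60 Mb), with 648 HindIII motifs. It held 22 protein-coding gene starts, 11 of them from the records of the listed Hoxa genes. This corresponded to 11.4 gene starts per Mb, rank 30 from the highest among the 34 windows (lowest 1.81, median 22.6, highest 39.2). Listed sites numbered 14, against a median of 13.5 (range 5 to 25). Their share of the motifs was 2.16% (exact 95% interval 1.19 to 3.60%), rank 14 of 34 (median 1.93%). Per Mb, listed sites numbered 7.25, rank 8 of 34 (median 5.42). The Hoxa window thus was gene-poor for a window found in both replicates. Its listed sites were near the middle by number and by share of motifs, and in the upper part per Mb.

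Within the Hoxa cluster, 2 of 41 HindIII motifs were listed (4.88%, exact 95% interval 0.596 to 16.5%). In the rest of the window, 12 of 607 were listed (1.98%, interval 1.03 to 3.43%). The intervals overlap and the sites are few. A difference between the cluster and its surroundings was not tested. The site at 52130046 lay in an intron of Hoxa3 and in an exon of 5730596B20Rik, a protein-coding record on the opposite strand, 2.55 kb from its start. The site at 52186923 lay in an intron of Hoxa10, a posterior gene active in the developing uterus and in blood progenitors, 3.93 kb from the annotated gene start. All 41 motifs of the cluster had unique flanks, meaning that the 30 bases on both sides occur beside no other HindIII motif; whether they occur elsewhere in the genome was not checked. The other 39 motifs, among them the motif 0.104 kb from the start of Hoxa9 and the one 0.292 kb from the start of Hoxa7, were not listed.

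Around the cluster, the nearest listed site on the lower side was at 52105460, 6.89 kb beyond the listed genes, and the nearest on the higher side at 52286485, 75.6 kb beyond Hoxa13. Within 1 Mb on both sides, 13 of 707 motifs were listed (1.84%, interval 0.983 to 3.12%). This stretch runs past the end of the region on the higher side, where the file lists no sites, so its share is lowered by construction. Among these 13, listed sites fell in an exon of Hnrnpa2b1 (an RNA-binding protein), in an intron of Skap2 (an adaptor of Src kinases) and in an intron of Hibadh (an enzyme of valine breakdown), the last 0.861 kb from the gene start. The file does not say in which replicate a site was seen.

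**Figure D2:**
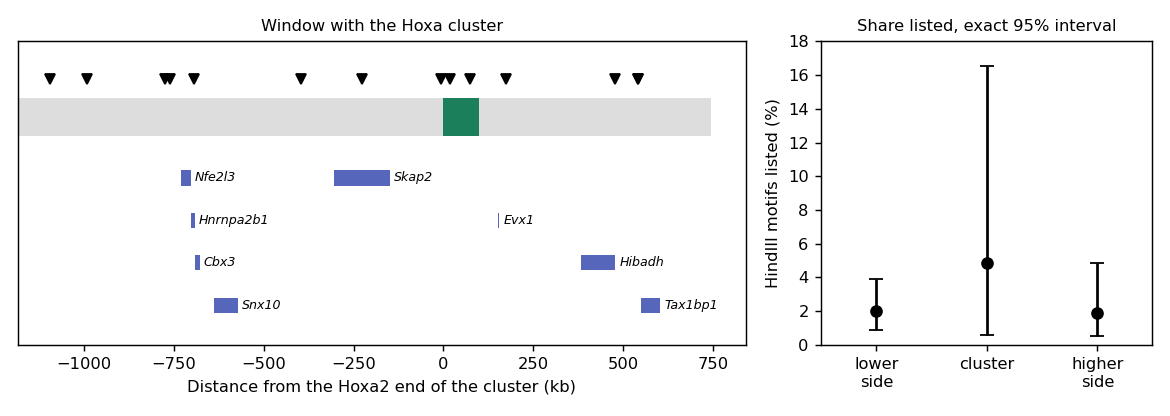
Left, the window found in both replicates (light bar) with the Hoxa cluster (green), its 14 listed HindIII sites (triangles) and neighbouring protein-coding genes (blue), by distance in kb from the Hoxa2 end. Right, percent of HindIII motifs listed in the cluster (4.88%) and on its lower (2.01%) and higher (1.91%) sides in the window, with exact 95% intervals that overlap.

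The Hoxb cluster (chromosome 11, 96055630 to 96229570, 174 kb) was cut by the start of a region of replicate 2 at 96183147. This point lay 195 bp after the end of Hoxb4 and 1.49 kb before the start of Hoxb3. The anterior genes Hoxb3, Hoxb2 and Hoxb1, which act in hindbrain segments, were inside the region, and 7 genes from Hoxb4 to Hoxb13 were outside it. Gene starts outside lay between 5149 bp (Hoxb4) and 127517 bp (Hoxb13) from the edge. In all, 26.7% of the cluster was covered in replicate 2 and 0% in replicate 1. The edge coincides with a HindIII motif, as the regions were built from windows that count such motifs. It marks where a window began and does not measure where contact started. The window to the lower side was called in neither replicate.

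The region of replicate 2 in Hoxb ran to 98871651 and held 634 HindIII motifs and 76 gene starts (28.3 per Mb). Replicate 1 had its nearest region at 101432993 to 104136556, 5.20 Mb from the cluster on the higher side. No region of replicate 1 lay between 5499341 and that one, a stretch of 95.9 Mb.

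The Hoxc cluster (chromosome 15, 102751534 to 102867274, 116 kb) lay in full in a region of replicate 2, with all 9 listed genes from Hoxc13, known for its role in hair and nails, to Hoxc4. It stands 0.628 Mb from the chromosome end. The region, 102601911 to 103484449, was the last window of the chromosome and measured only 0.883 Mb, with 269 HindIII motifs. Of 139 windows called off chromosome 17, 4 had fewer than 500 motifs; the others had 628 to 1218. It is the window without which 13 Hox genes remained in replicate 2. In replicate 2 the last window followed the touching regions at 97436967 to 100087140 and 100087141 to 102601910. The former was called in both replicates, and its end, 2.66 Mb from the cluster, was the nearest point of any region of replicate 1. Between that shared region and the cluster lay 1 full window, called in replicate 2 only.

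The Hoxd cluster (chromosome 2, 74506367 to 74603200, 96.8 kb) overlapped no region, and none of its 9 listed genes, from Hoxd13, a gene of digit formation, to Hoxd1, came close to one. The nearest region of replicate 1 lay 41.6 Mb away on the lower side and ended at 32926859. The same window was also called in replicate 2, whose nearest region lay 27.4 Mb away on the higher side and began at 102039403. The distance was 34.5 ± 10.0 Mb (SD, n = 2). Hoxd stood in the longest stretch between regions of replicate 1 (109.7 Mb, the longest of 46, median 18.2 Mb) and in the second longest of 63 in replicate 2, at 69.1 Mb (median 20.3 Mb, longest 82.1 Mb).

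**Figure D3:**
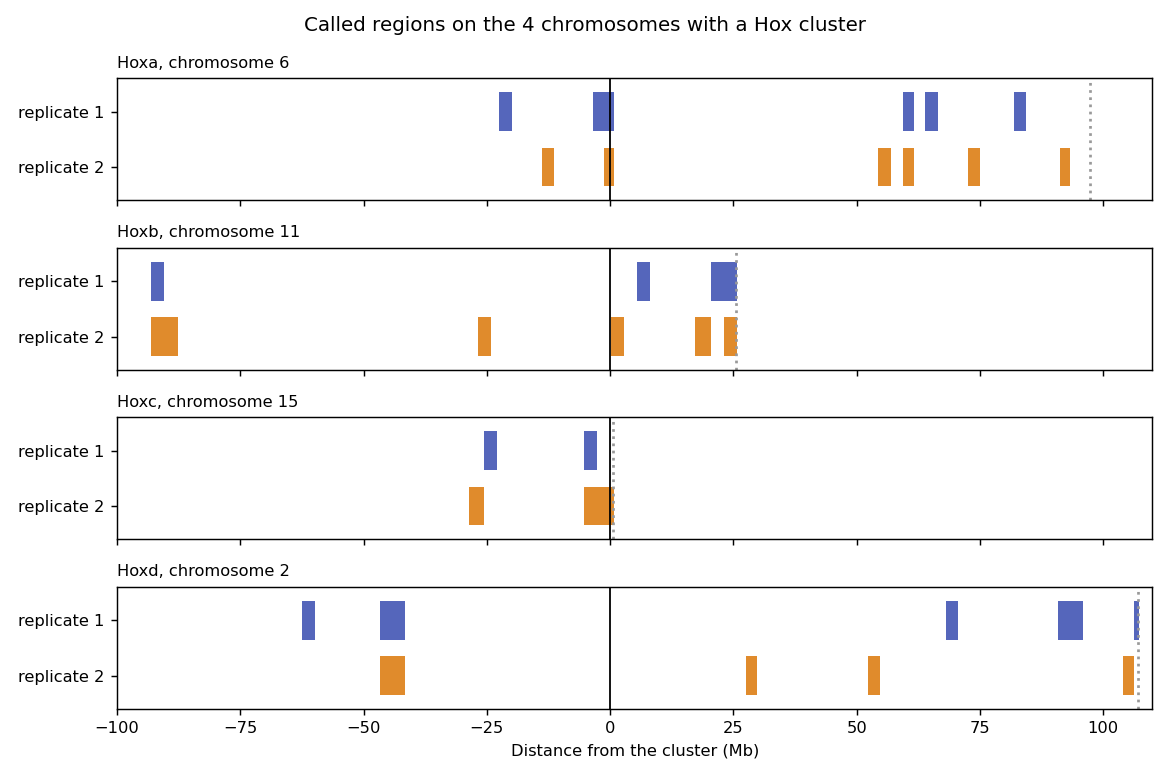
Called regions of replicate 1 (blue) and replicate 2 (orange) on the 4 chromosomes, by distance in Mb from each Hox cluster (black line), with the chromosome end dotted. Regions of both replicates meet at Hoxa, while Hoxd stands in a stretch of 69.1 Mb without a region in either replicate.

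Off chromosome 17, the further file listed sites only inside regions of replicate 1. Windows found in both replicates held 508 listed sites off chromosome 17, 7 windows of replicate 1 that touched such a window held 82, and 60 windows of replicate 2 only held 0. The touching window beside the Hoxa window held 12. The absence of listed sites within 2 Mb of Hoxb, Hoxc and Hoxd therefore says nothing about contact there. The nearest listed sites lay 20.2 Mb from Hoxb and 2.67 Mb from Hoxc.

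Among paralogues, region status largely followed from the cluster calls, since each group takes its members from different clusters. All 13 groups had 2 or more listed members, and in each the members differed in region status, with 3 different states in 8 groups. These counts largely restate the cluster calls and are no separate observation on paralogues. Of 3 groups with a listed gene in all clusters, groups 4, 9 and 13, each had the Hoxa gene in both replicates, the Hoxc gene in replicate 2 and the Hoxb and Hoxd genes in none. In Hoxa, Hoxc and Hoxd all members shared 1 state. The windows are wider than the clusters, so these calls do not resolve position within a cluster.

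**Figure D4:**
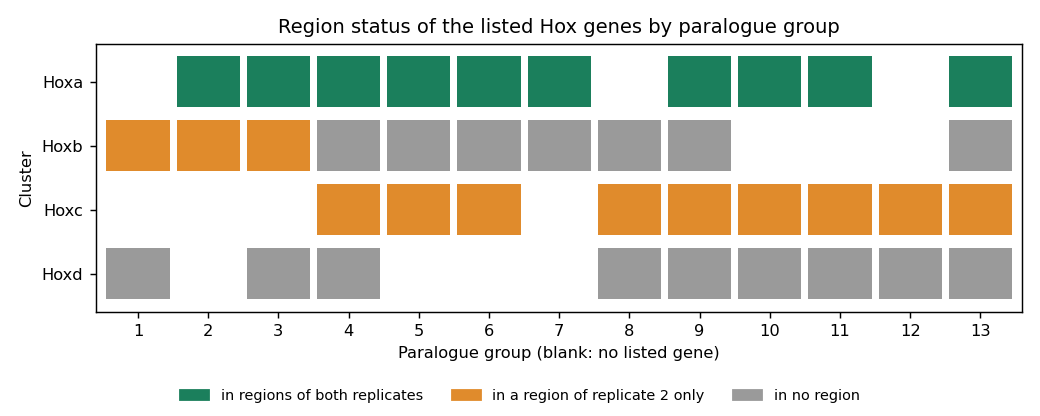
Region status of each listed Hox gene (colour) by cluster (rows) and paralogue group (columns), where a blank cell holds no listed gene. Colour follows the row and not the column, except in Hoxb, where groups 1 to 3 differ from the rest.

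MicroRNA genes of the clusters, which repress Hox transcripts among other targets, were in the same state as their neighbours. Their mature forms are shown because the miR-196 genes, which share a seed, lie in clusters of different state; the others are shown beside them. The sequences are from RefSeq (GRCm38.p6), matched by gene symbol for all 6 genes, with the seed (bases 2 to 8) in capitals.
miR-10a-5p: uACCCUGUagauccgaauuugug
miR-10b-5p: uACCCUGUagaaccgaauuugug
miR-196a-5p: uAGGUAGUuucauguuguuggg
miR-196b-5p: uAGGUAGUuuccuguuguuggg
miR-615-3p: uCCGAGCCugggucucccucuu
Of the miR-10 pair, Mir10a lay in Hoxb, 4.67 kb before the edge of the region of replicate 2, and Mir10b in Hoxd, and neither was in a region. Of the miR-196 genes, Mir196b in Hoxa was in regions of both replicates, Mir196a-2 in Hoxc in replicate 2 only, and Mir196a-1 in Hoxb in none, 56.7 kb from the edge. Mir615, in Hoxc, was in replicate 2 only.

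The clusters are flanked by further families that were duplicated with them, and the 5 nearest protein-coding records on each side were read in the same way. Beside Hoxa, 8 of 10 were in regions of both replicates, and only Jazf1 and 9430076C15Rik on the higher side were in none. Beside Hoxb, all 5 on the lower side were in none and all 5 on the higher side in replicate 2 only. All 10 beside Hoxc were in replicate 2 only, and all 10 beside Hoxd in none. Over all protein-coding genes off chromosome 17, 10.0% were in both replicates, 20.0% in replicate 2 and 27.7% in either. Of 10 families with a member beside 2 or more clusters, the members differed in state in 9. For the genes of NFE2-related leucine zipper factors, Nfe2l3 (Hoxa) was in both replicates, Nfe2 (Hoxc) and Nfe2l1 (Hoxb) in replicate 2 only and Nfe2l2 (Hoxd) in none. For the heterochromatin proteins, Cbx3 (Hoxa) was in both, and Cbx5 (Hoxc) and Cbx1 (Hoxb) in replicate 2 only. Of the RNA-binding proteins, Hnrnpa2b1 (Hoxa) was in both, Hnrnpa1 (Hoxc) in replicate 2 only and Hnrnpa3 (Hoxd) in none. The even-skipped homeobox gene Evx1, 52.6 kb from Hoxa13, was in both, and Evx2, 8.45 kb from Hoxd13, in none. Members also differed in the Skap, Snx, Calcoco, Atp5g and Atf families. In the remaining family, that of coat protein subunits, Copz1 (Hoxc) and Copz2 (Hoxb) were both in replicate 2 only. Calcoco1, Atp5g2 and Atf7 lay in the touching window below that of Hoxc. The other neighbours in a region shared the window of their cluster, or of part of it, and are no separate observation.

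The clusters resembled each other in GC content and less so in CpG dinucleotides. GC content was 50.0% in Hoxa, 48.9% in Hoxb, 49.1% in Hoxc and 49.4% in Hoxd, above the 41.4 to 43.8% of their chromosomes. CpG dinucleotides numbered 29.9 per kb in Hoxa, 20.9 in Hoxb, 21.5 in Hoxc and 28.0 in Hoxd, against 7.96 to 9.79 over the chromosomes. HindIII motifs varied more, with 416 per Mb in Hoxa, 287 in Hoxb, 242 in Hoxc and 299 in Hoxd (chromosomes 305 to 325). Hoxa, the cluster found in both replicates, thus offered the most cutting sites per Mb. The part of this density in the result was not tested. Gene starts lay a median of 1.27 kb from a HindIII motif (range 0 to 5.89 kb over 38 genes), and 7 of the 38 gene bodies held no motif, so each of those genes lay within a single HindIII fragment.

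Genes that work with Hox proteins or control the clusters were read from lists, off chromosome 17, as descriptions beside the same background. Of 7 TALE cofactors, which bind DNA together with Hox proteins, 1 was in both replicates (Pbx4), against 10.0% of all genes. On the bait chromosome, where regions are called with smaller windows and 45.8% of 1091 protein-coding genes were in both, Pbx2 was in both and Pknox1 in none. Of 6 ParaHox and Cdx genes, regulators and relatives of Hox genes, 0 were in both, and Cdx4 was in replicate 1 only. Of 28 Polycomb genes, 7 (25.0%) were in replicate 1, 4 (14.3%) in replicate 2 and 2 (7.14%) in both, against 17.7%, 20.0% and 10.0% of all genes. The 2 in both were Rbbp4, a histone-binding subunit of PRC2, and Phc2, a subunit of PRC1. They lay in 1 window, and the 7 genes of replicate 1 lay in 3 windows, so they are not independent places. Of the Polycomb genes on chromosome 17, Ring1, a ubiquitin ligase of PRC1, was in both and held 1 listed site, and Phf1 was in none, beside the 45.8% of genes in both there.

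Of 12 genes for trithorax-type activators and partners, 7 (58.3%) were in replicate 1, 5 (41.7%) in replicate 2 and 5 (41.7%) in both, against 17.7%, 20.0% and 10.0% of all genes. These 5 were Mll2, a histone H3K4 methyltransferase, Rbbp5, a core subunit of such complexes, Men1, the subunit menin, Dot1l, an H3K79 methyltransferase, and Hcfc1, a cofactor of these enzymes. Mll2 lay on chromosome 15 in the same window, 97436967 to 100087140, that ends 2.66 Mb from Hoxc, and held 1 listed site, as did Dot1l. Of 30 other homeobox genes of small clusters (such as Dlx, Irx, Nkx, Lbx and Evx), 1 was in replicate 1 (3.33%), 3 in replicate 2 (10.0%) and 1 in both (3.33%), Evx1, against the same shares of all genes. Tlx1 and Lbx1, close together on chromosome 19, were in replicate 2 only. On chromosome 17, where 45.8% of genes were in both, the trithorax-type gene Dpy30 was in replicate 2 only. The homeobox genes Nkx2-5, Six2 and Six3 on that chromosome were in none.

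**Figure D5:**
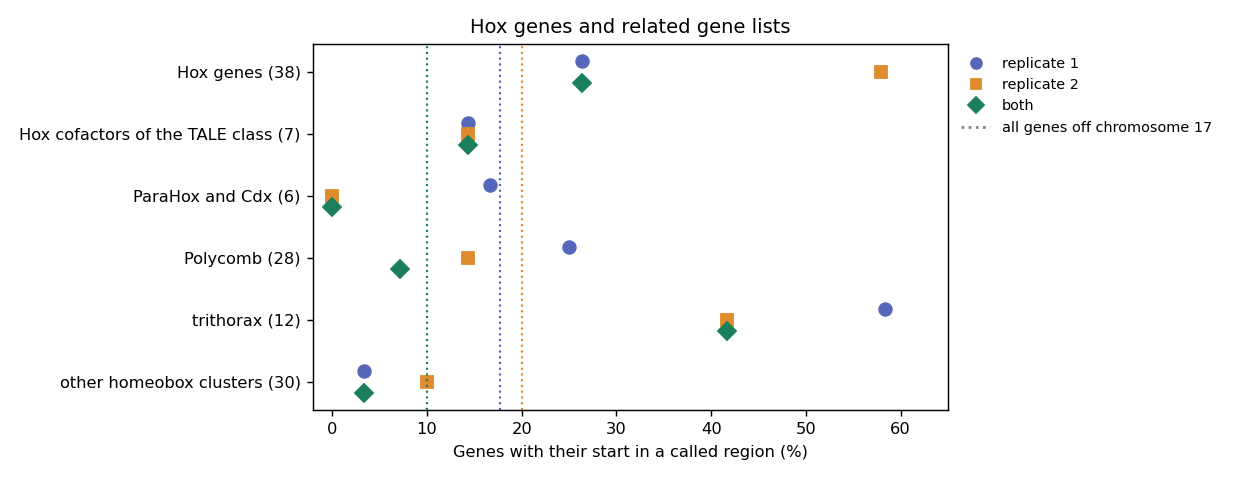
Percent of genes with their start in a called region of replicate 1 (circles), replicate 2 (squares) and both (diamonds) for the 38 Hox genes and 5 related lists (number of genes off chromosome 17 in brackets), with the same shares over all protein-coding genes off chromosome 17 dotted (17.7, 20.0 and 10.0%). Hox genes stand at 26.3, 57.9 (22 genes, or 13 without the short window that holds Hoxc) and 26.3%, and other homeobox genes at 3.33, 10.0 and 3.33%.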

How the data were processed

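Enzyme-based 4C-Seq of 2 replicates was used. Reads with the inverse PCR primer at the 5′ end were selected by the authors, aligned without it to mm9 with BWA (version not given in the sources used here) and assigned to HindIII sites. Windows described as covering 500 HindIII sites (fewer on chromosome 17) were scored in each replicate and selected by a permutation-based false discovery rate. Most called windows held more motifs of the reference than that, as given above. The deposited files give start and end positions (no score, ratio or count), so the depth behind each region and its precision are unknown; library totals are in the study's supplement, and no count from it entered a result.

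Here, positions were written from 1 on mm9 (NCBIM 37) with GENCODE M1. A gene was counted by its start. An overlap was at least 1 bp. Exact (Clopper-Pearson) 95% intervals cover counting error only. No test was run, since there is 1 group. Gene lookups were tested on simulated lists. Python 3.11.15, numpy 2.4.6 and scipy 1.17.1 were used. Named genes are the listed Hox genes, 5 neighbours on each side, and listed genes found in both replicates; others were named after their values were seen. Members and lists were chosen with earlier results of these data known. Alternatives were gene bodies, joined regions (under 1 Mb apart), other spans, distances, radii, motifs and backgrounds, and leaving out each replicate.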

Additional observations from a re-analysis of the deposited data

How the results depend on the processing

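Of 76 repeats under another setting, 72 stayed within the limit set for them: 1.5 times a count or background share, 1 SD between the replicates for a distance, and the exact interval for the share of listed motifs. Some could not leave it: 8 distances with a replicate left out, since either of 2 values lies within 1 SD of their mean, and 12 shares at Hoxb, Hoxc and Hoxd, where no site is listed. This left 56, of which 4 moved. The 56 still hold the distances from the cluster middle, which could hardly leave their limit either. For Hoxb, Hoxc and Hoxd these shift by less than the length of the cluster, far below 1 SD. For Hoxa the distance stays 0, since the cluster lies inside its region. Counting gene bodies, joining regions less than 1 Mb apart or widening the clusters by 100 kb changed no count of Hox genes or clusters in either replicate. Asking for the whole cluster inside a region removed Hoxb, which left 2 clusters in replicate 2. Without windows under 500 motifs, chosen after seeing the data, replicate 2 held 13 Hox genes instead of 22, and 2 clusters. Leaving out a replicate gave 10 to 22 Hox genes (mean 16) and 1 to 3 clusters (mean 2), and distances of 0 to 5.20 Mb for Hoxb, 0 to 2.66 Mb for Hoxc and 27.4 to 41.6 Mb for Hoxd. Within 0.1 Mb of Hoxa, 4.00% of motifs were listed instead of 1.84% within 1 Mb, with intervals that overlap. The 1 Mb stretch reaches past the region, where no site is listed. Within 0.5 Mb, a stretch inside the region, the share was 2.28%. Each stretch holds the smaller ones, so the shares are not independent. The cause of these changes was not tested. No paired analysis was possible because there is 1 group.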

Other observations

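Other Polycomb genes lay in regions of 1 replicate. Cbx6 and Cbx7, whose proteins belong to PRC1, lay close together on chromosome 15 and were in replicate 1 only. Pcgf2, a PRC1 subunit on chromosome 11, lay in the region of replicate 2 that begins inside Hoxb.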
